A study of Homo sapiens with 3 samples.

Results

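Cluster 0 was the largest of the 14 groups of cells that the authors deposited as a per-cell annotation of drug-treated breast cancer spheroids, and it held 5818 of the 19237 annotated cells. Its members were the cells with the value 0 in the deposited clustering at resolution 0.8. All cells came from CAMA-1, an established estrogen receptor positive breast cancer cell line. Sensitive cells carried the fluorescent protein gene mVenus, and resistant cells, made from the same line by long culture in ribociclib, carried mCherry. Ribociclib inhibits CDK4 and CDK6, the kinases that phosphorylate RB and let a cell leave G1. Spheroids were started from 2000 cells that were all sensitive, all resistant, or 50% of each, kept for 11 days in 1 µM ribociclib (in DMSO, per the labels), and measured by droplet single-cell RNA sequencing with 1 library per condition. There was no untreated library, so no value here is an effect of the drug. With 1 library per condition no test between conditions could be made, and intervals cover counting error only.

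Luminal breast epithelial cells line the ducts and secrete mucins, trefoil factors and matrix proteins. Cycling cells pass from G1 through DNA replication (S) to mitosis (G2M), and each step has its own transcripts, so a group of cells resting in G1 shows low levels of the S and G2M ones. MGP, matrix Gla protein, the marker given for cluster 0, is a secreted inhibitor of calcification. The comparison asks what sets the largest group of resistant cells apart from the other resistant cells of the same library. The clusters had been made from the expression of these same cells, so every difference between clusters is a description, and none was tested.

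Cluster 0 was a resistant-cell cluster. It held 2534 resistant cells of the coculture (43.6% of the cluster), 3238 of the resistant monoculture (55.7%), 43 sensitive cells of the coculture (0.739%) and 3 of the sensitive monoculture (0.0516%). It took 40.3% of the 6292 resistant cells in coculture (exact Clopper-Pearson 95% interval 39.1 to 41.5%) and 42.8% of the 7557 in monoculture (41.73 to 43.97%). These shares rest on unlike mCherry limits in the 2 libraries, given below, so their order is not read as a difference. The next resistant clusters were much smaller: cluster 1 held 16.3% and 18.2%, cluster 2 held 15.97% and 13.2%, cluster 5 held 11.4% and 13.02%, and cluster 6 held 8.06% and 7.62% of the resistant cells in coculture and monoculture. All values below are of resistant cells unless sensitive cells are named.

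The cells of cluster 0 were as deeply read as their neighbours, with small gaps. The median was 29280 UMIs (unique molecule counts) and 4525.5 genes per cell in coculture, and 34730 UMIs and 4804 genes in monoculture, against 31962 and 36007 UMIs in the other resistant cells. The median mitochondrial share of UMIs was 16.2% and 16.9% in cluster 0 against 14.6% and 14.6% elsewhere. Doublet scores above 0.25 were found in 1.70% and 2.16% of its cells against 5.99% and 4.24%. No mVenus UMI was found in its resistant cells or in those of any other cluster, so this absence is no trait of cluster 0. Its mCherry level was 74.4 UMIs per 1000000 (CPM) in coculture against 89.6 in the other resistant cells, and 42.2 against 62.5 in monoculture. In monoculture 67.4% of its cells had an mCherry UMI against 76.9% of the others. The annotated coculture cells all had 1 or more mCherry UMIs, and the monoculture cells had been kept whether or not they had one. With 2 or more mCherry UMIs in both libraries, cluster 0 took 37.1% of resistant cells in coculture and 35.1% in monoculture. That is the reverse of the order above. The part of these gaps in the values below was not tested. The 2 libraries shared 17 barcodes among annotated cells, 2 of them in cluster 0.

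The defining markers of luminal epithelium were present in these cells. EPCAM, the epithelial adhesion molecule, stood at 241 CPM in coculture and 327 in monoculture. The simple keratins KRT8 (1831 and 2125 CPM), KRT18 (2862 and 3731) and KRT19 (3049 and 3707) were abundant, as were the luminal transcription factors GATA3 (418 and 362) and FOXA1 (97.3 and 81.5). ESR1, the estrogen receptor gene, was at 16.1 and 13.6 CPM. TFAP2B, a further member of the luminal list, had 0 UMIs in both libraries. Basal, fibroblast, endothelial and immune markers were close to 0. Their summed levels were 1.52 and 0.385 CPM for the basal list, 4.22 and 2.48 for the fibroblast list, 0.143 and 0.114 for the endothelial list and 1.25 and 1.38 for the immune list. LUM and KDR had 0 UMIs in both libraries, KRT5 had 1 and 0, and PTPRC had 1 and 0. The mesenchymal list summed to 3451 and 3186 CPM, against 3053 and 2888 in the other resistant cells, nearly all of it LGALS1, galectin-1 (3287 and 3004 CPM), while VIM, vimentin, was at 0.662 and 0.893 CPM.

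Most cells of cluster 0 were called G1 by the authors' cell cycle scoring. The share was 83.7% in coculture (2122 cells, interval 82.2 to 85.2%) and 80.7% in monoculture (2613 cells, 79.3 to 82.0%). In the other resistant cells it was 26.7% (1003 cells) and 27.0% (1168 cells). Cluster 13, a small cluster, was higher still, at 98.2% and 96.1%. Cluster 1 was mostly in S, with 90.4% and 90.3% of its cells, and cluster 2 was in G2M, with 98.2% and 97.9%. Clusters 5 and 6 were mixed, with G1 shares of 65.5% and 69.0% in cluster 5 and 58.0% and 52.6% in cluster 6.

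**Figure D1:**
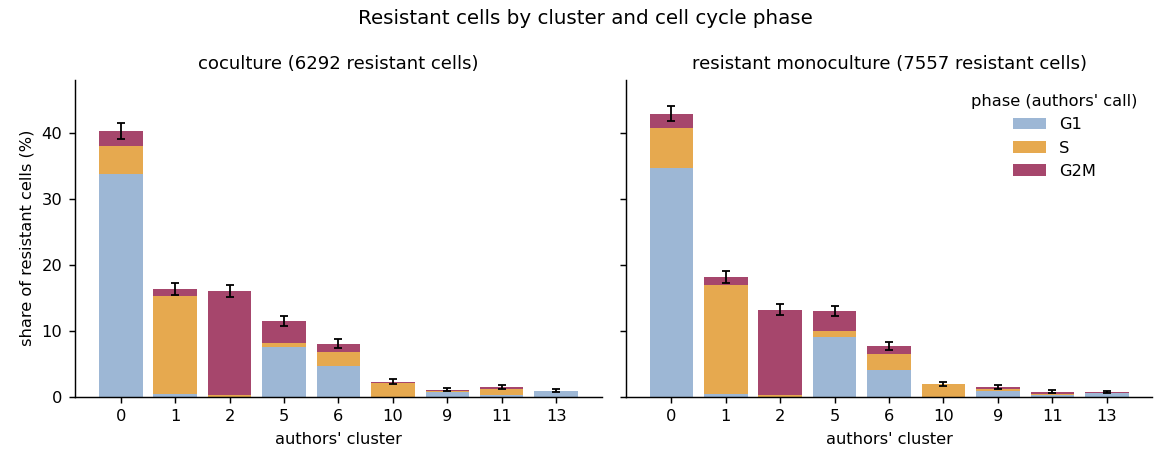
Stacked bars give the percent of each library's resistant cells in each of 9 clusters, split by the authors' phase call, for the coculture (left) and the resistant monoculture (right), with exact 95% intervals of the whole bar. Cluster 0 holds 40.3% and 42.8% of the resistant cells and is 83.7% and 80.7% G1.

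The S and G2M calls inside cluster 0 were weak ones. Its cells called S had a median S score of 0.0305 in coculture and 0.0378 in monoculture, against 0.213 and 0.222 in the S cells of the other clusters. The G2M cells had median G2M scores of 0.0185 and 0.0229 against 0.309 and 0.309. Transcripts showed the same gap. The S-phase list summed to 1180 and 1245 CPM in the S cells of cluster 0, against 2460 and 2475 in S cells elsewhere and 533 and 518 in its own G1 cells. MKI67, the proliferation marker, stood at 30.2 and 28.5 CPM in its G2M cells against 180 and 179 in G2M cells elsewhere. The authors' calls use lists of this kind, so these levels and the calls are not independent.

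Across all phases, cluster 0 had less transcript of cell cycle genes, and its highest genes included MUCL1, S100P, CLIC3 and KRT81. A gene was counted past the fold when its log2 ratio, with 1 CPM added to both sides, reached 0.3 in the same direction in both libraries. Of 12373 genes with 50 or more UMIs, 518 were higher in cluster 0 (4.19%) and 1756 were lower (14.2%). With TMM scaling the split was 828 higher and 1301 lower. The median of all genes was −0.06 in coculture and −0.07 in monoculture. Ratios in the 2 libraries were close, with a Pearson correlation of 0.992 across 2253 genes with a mean of 50 CPM or more, a description across genes, which are not replicates. The same clusters, made from these cells' expression, were used in both libraries, so this closeness partly follows from the clustering.

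MGP was highest in cluster 0, close to clusters 9 and 1, and low in clusters 6 and 10. The gene lies on the minus strand of chromosome 12, from 15033798 to 15038791 (GRCh37). In cluster 0 it stood at 7405 CPM in coculture and 7731 in monoculture, against 5091 and 5598 in the other resistant cells, log2 ratios of 0.54 and 0.47. By cluster, cluster 9 had 7354 and 7156 CPM and cluster 1 had 6952 and 7085, close below cluster 0. Clusters 6 (1041 and 1423) and 10 (989 and 1169) were far lower. With cluster 6 left out of the other cells the log2 ratio was 0.38 and 0.31, and with clusters 6 and 10 left out it was 0.32 and 0.26. Among G1 cells it was 0.84 and 0.63, but the other cells were then a different mix. Cluster 6 made up 294 of the 1003 other G1 cells in coculture and 303 of 1168 in monoculture. Across phases it made up 507 of 3758 and 576 of 4319. The G1 ratio without cluster 6 is not given. MGP alone did not set cluster 0 apart from clusters 9 and 1.

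Read per cell, the MGP level of cluster 0 was matched by several other clusters. After thinning every cell to 5000 UMIs, 98.1% of cluster 0 cells in coculture and 98.5% in monoculture had an MGP UMI, against 97.2% and 98.1% of the other resistant cells, shares too near their ceiling to compare. The median was 30 and 32 thinned UMIs in cluster 0 and 19 and 22 in the other resistant cells, which mix unlike clusters. Cluster 1 had medians of 30 and 30, cluster 5 of 28 and 29 and cluster 9 of 37 and 30, whereas cluster 6 had 3 and 5 and cluster 10 had 3 and 4. Sensitive cells of the coculture had an MGP UMI in 83.1% of cells, with a median of 2. The 43 sensitive cells placed in cluster 0 had a median of 29, close to the resistant cells beside them, and none had an mCherry UMI.

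Among genes with a mean of 50 CPM or more, KRT81 had the largest log2 ratio over the other resistant cells across all phases. KRT81, a hair keratin gene on chromosome 12 (52679697 to 52685318, minus strand), stood at 118 CPM against 38.2 in coculture and 121 against 41.0 in monoculture, log2 ratios of 1.60 and 1.54. MUCL1, which encodes a small breast mucin (chromosome 12, 55224302 to 55289792, plus strand), stood at 804 against 324 and 458 against 178 CPM, ratios of 1.31 and 1.36. S100P, a calcium-binding protein gene on chromosome 4 (6695605 to 6698897, plus strand), was at 96.4 against 46.5 and 107 against 45.9 CPM. CLIC3, an intracellular chloride channel gene on chromosome 9 (139889060 to 139891020, minus strand), was at 755 against 370 and 736 against 366 CPM. KRT7, a keratin of simple epithelia that lies near KRT81 on chromosome 12 (52626304 to 52645970, plus strand), was at 1100 against 610 and 973 against 540 CPM. TFF3, a secreted trefoil factor, had log2 ratios of 0.67 and 0.69. CLU, the secreted chaperone clusterin, had 0.76 and 0.66. KIAA1324, an estrogen-responsive membrane protein gene, had 0.70 and 0.65. LMTK3, MFSD3, TSTD1 and CREB3L4 completed the 12 highest, with ratios from 0.59 to 0.73. Not every keratin was among them: KRT8 (0.20 and 0.12) and KRT18 (0.19 and 0.11) did not pass the fold.

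Set side by side by cluster, several of these genes were as high or higher in a small cluster. Clusters 9 (67 and 108 resistant cells), 11 (89 and 57) and 13 (55 and 51) are small, so their summed levels can rest on few cells. S100P and CLIC3 were highest in cluster 0 in both libraries, and CLIC3 was followed by cluster 9 (546 and 565 CPM) and cluster 1 (507 and 472). KRT81 was highest in cluster 13 in coculture (328 CPM) and in cluster 9 in monoculture (246). KRT7 was highest in cluster 13 (1396 and 1192 CPM), with cluster 0 next. MUCL1 in coculture was alike in cluster 0 (804) and cluster 9 (792), and in monoculture clusters 11 (564) and 13 (532) were above cluster 0 (458). MALAT1, a nuclear noncoding RNA, was highest in cluster 0, at 55942 and 52362 CPM against 38647 and 36876 in the other resistant cells, beside the higher mitochondrial share given above. Whether these were related was not tested.

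**Figure D2:**
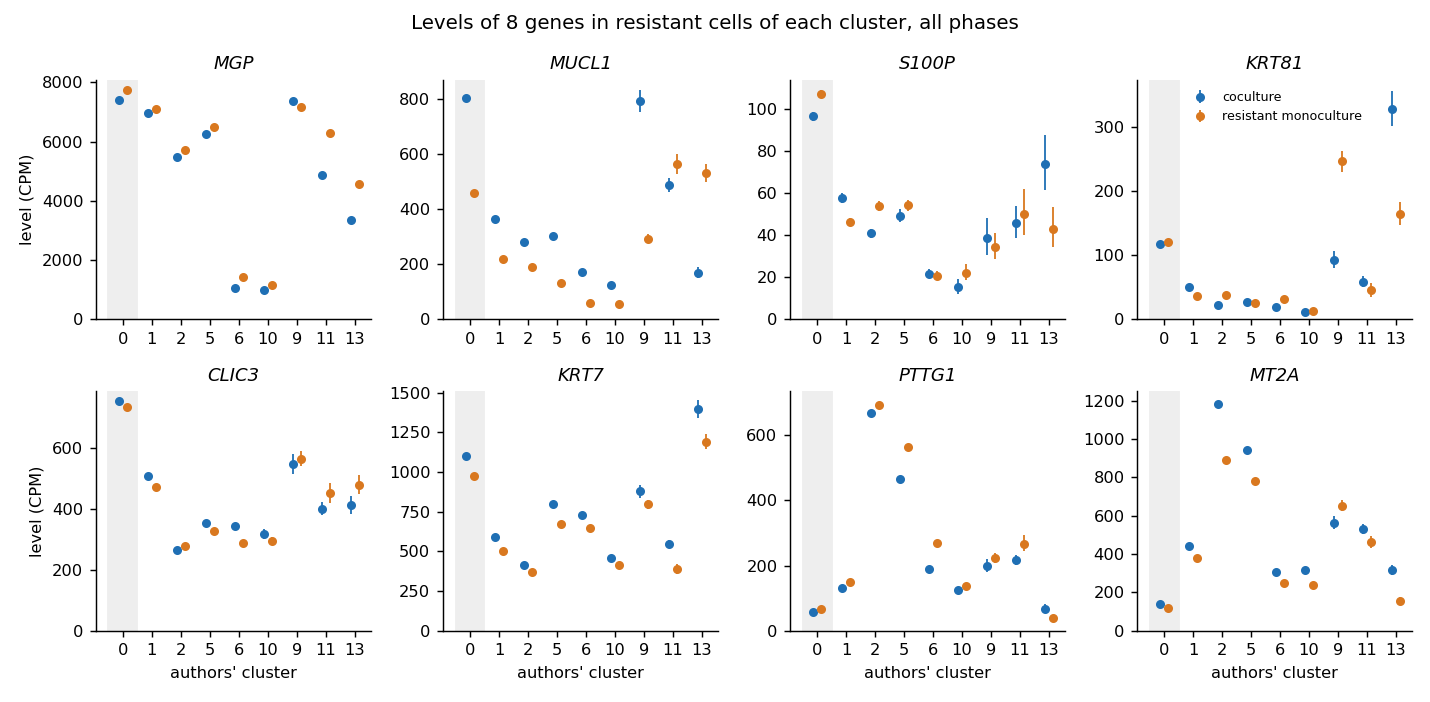
Levels of 8 genes in CPM (linear axes from 0) in the resistant cells of each cluster, all phases, with 1 point per library and exact 95% Poisson intervals as lines. S100P and CLIC3 are highest in cluster 0, MGP is close in clusters 0, 9 and 1, and KRT7 is highest in cluster 13.

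The higher genes were of 2 kinds when counted cell by cell. MUCL1, S100P and KRT81 came mostly from few cells: the 5% of cluster 0 cells with most thinned UMIs held 66.1% of the MUCL1 UMIs in coculture and 70.5% in monoculture, 68.7% and 65.6% for S100P, and 83.4% and 83.3% for KRT81. These genes were concentrated in the other resistant cells too, at 55.4% and 63.5% for MUCL1, 69.0% and 61.4% for S100P, and 83.1% and 90.5% for KRT81. KRT7 (14.2% and 15.2%), CLIC3 (14.9% and 15.6%) and MGP (16.6% and 16.04%) were spread over the cells. After thinning, a KRT81 UMI was found in 12.9% and 12.5% of cluster 0 cells against 8.25% and 7.02% of the others, and in 5.29% of sensitive coculture cells. An S100P UMI was found in 17.4% and 18.7% against 12.1% and 13.8%, and in 11.2% of sensitive coculture cells. A MUCL1 UMI was found in 60.8% and 42.2% of cluster 0 cells against 50.5% and 30.1%, and in 71.1% of sensitive coculture cells. The MUCL1 share was thus below that of the sensitive cells in the same spheroids, and it is not read as a share of expressing cells. A CLIC3 UMI was found in 91.5% and 89.8% of cluster 0 cells against 73.8% and 71.8% of the others.

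The lowest genes across all phases were those of replication and mitosis. TYMS, which makes thymidylate for DNA synthesis, stood at 7.99 CPM against 83.1 in coculture and 9.71 against 99.3 in monoculture, log2 ratios of −3.23 in both. MKI67 was at 10.3 against 104 and 10.9 against 102 CPM. HMGB2, a chromatin protein gene, was at 13.2 against 128 and 13.7 against 126. PTTG1, securin, which guards chromatid separation (chromosome 5, 159848862 to 159855746, plus strand), was at 57.3 against 353 and 65.5 against 385. The histone gene HIST1H4C, whose reads near-identical histone genes can share, was at 133 against 794 and 119 against 613. NUSAP1, PCLAF, TOP2A, STMN1, BIRC5 and DEK were also among the lowest, with ratios from −3.10 to −1.87. One gene of the 12 was no cell cycle gene: MT2A, a metallothionein that binds zinc and copper (chromosome 16, 56642496 to 56643409, plus strand), stood at 142 against 715 and 117 against 570 CPM. Metallothionein genes are close paralogs, so MT2A counts may be shared among them.

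All 40 measured S-phase genes were lower in cluster 0, with medians of −1.21 in coculture and −1.20 in monoculture, and 51 of 52 G2M genes were lower, with medians of −1.59 and −1.54. Of the list of CDK4/6, cyclins and RB, 12 of 20 genes were lower (−0.53 and −0.55), among them CCNA2 (−2.37 and −2.24) and CCNE2 (−2.40 and −2.20), the cyclins of S phase entry and progression. Over all genes 14.2% were lower, and the medians were −0.06 and −0.07. In G1 cells 2 of 19 genes of the CDK4/6, cyclins and RB list were lower (−0.15 and −0.13), where 8.33% of all genes were lower. Among the list's members CCND1, the cyclin partner of CDK4, was at 1558 and 1674 CPM in cluster 0.

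Several growth and stress lists had more lower genes than the 14.2% of all genes, but the hypoxia (1 of 20 lower), oxidative stress (0 of 12) and unfolded protein (1 of 18) lists did not. In the list of MYC targets and ribosome biogenesis 16 of 27 genes were lower (−0.36 and −0.32), including NOP56, a nucleolar protein gene (−0.61 and −0.61), and ODC1, the first enzyme of polyamine synthesis (−0.80 and −0.80). In the heat shock list 9 of 14 were lower (−0.41 and −0.33), including the chaperone HSP90AA1 (−0.81 and −0.84), and 5 of 14 in G1 cells (−0.07 and −0.20). In the ATF4 list 6 of 16 were lower, including PHGDH, which opens serine synthesis (−1.66 and −1.49), and 3 of 16 in G1 cells (−0.12 and −0.06), where 8.33% of all genes were lower. All 4 metallothioneins tested were lower (−0.82 and −0.77). None of the 46 genes of the large ribosomal subunit, the 32 of the small subunit and the 13 respiratory genes of the mitochondrial genome passed the fold in either direction.

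In the matrix and secreted list 9 of 21 genes were higher and 1 was lower (medians 0.12 and 0.01), where 4.19% of all genes were higher. In G1 cells 6 of 19 were higher and 3 lower (−0.016 and 0.080), where 3.18% of all genes were higher and 8.33% lower. In the luminal identity list 1 of 17, KRT19, was higher (0.43 and 0.37). In the estrogen response list 2 were higher and 3 lower of 37. In the p53 list 3 were higher and 1 lower of 14, and in the unfolded protein list 3 were higher and 1 lower of 18.

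Among G1 cells alone MUCL1, S100P, CLIC3 and KRT81 were the 4 highest of the named genes. Fewer cell cycle genes were lower than across phases, which the choice of cells partly fixes, since the G1 call uses such genes. Of 11652 genes, 370 were higher in the G1 cells of cluster 0 (3.18%) and 971 were lower (8.33%), and with TMM scaling 692 were higher and 562 lower, so the balance of the directions depends on the scaling. Within G1, 8 of 40 S-phase genes (medians −0.05 and −0.11) and 10 of 52 G2M genes (−0.04 and −0.04) were lower and none higher, against 8.33% lower of all genes and against all 40 and 51 of 52 lower across phases. Of the replication-dependent histones 5 of 11 were lower in G1 and 1 was higher (medians −0.26 and −0.27). MUCL1 stood at 893 CPM against 396 in coculture and 478 against 161 in monoculture, log2 ratios of 1.17 and 1.57. S100P was at 1.02 and 1.31, CLIC3 at 1.00 and 1.05, and KRT81 at 1.08 and 0.95 on the same scale. KIAA1324 (0.84 and 0.86), TFF3 (0.73 and 0.88), YPEL3, a growth-restraining gene (0.70 and 0.77), and SMIM1 (0.71 and 0.69) were the other genes among the 8 highest. The other G1 cells were mostly of clusters 5 (471 of 1003 in coculture and 679 of 1168 in monoculture) and 6 (294 and 303). In G1 the mitochondrial share was 16.7% and 17.4% in cluster 0 against 15.4% and 15.2%, and doublet scores above 0.25 were at 1.08% and 1.34% against 3.39% and 1.54%.

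The 8 lowest genes in G1 were of several kinds. PTTG1 was at 50.5 CPM against 233 in coculture and 57.4 against 353 in monoculture, log2 ratios of −2.19 and −2.60. MT2A was at 134 against 528 and 108 against 536. PCLAF, a PCNA-binding protein gene, was at 30.8 against 112 and 24.1 against 93.9. ISG15, an interferon-induced ubiquitin-like protein gene, was at 21.2 against 85.4 and 25.5 against 91.6, but its level across phases was 870 and 986 CPM in cluster 9 and cluster 0 was not the lowest cluster. STMN1, a microtubule regulator, had ratios of −1.45 and −1.54, HMGN2, a nucleosome-binding protein gene, −1.18 and −1.35, MARCKSL1 −1.03 and −0.97, and CDKN3, a CDK phosphatase gene, −0.92 and −1.16. ISG15, STMN1, HMGN2 and MARCKSL1 lie on the short arm of chromosome 1, which is described below. With cluster 6 left out of the other cells, 297 genes were higher and 917 lower in G1.

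**Figure D3:**
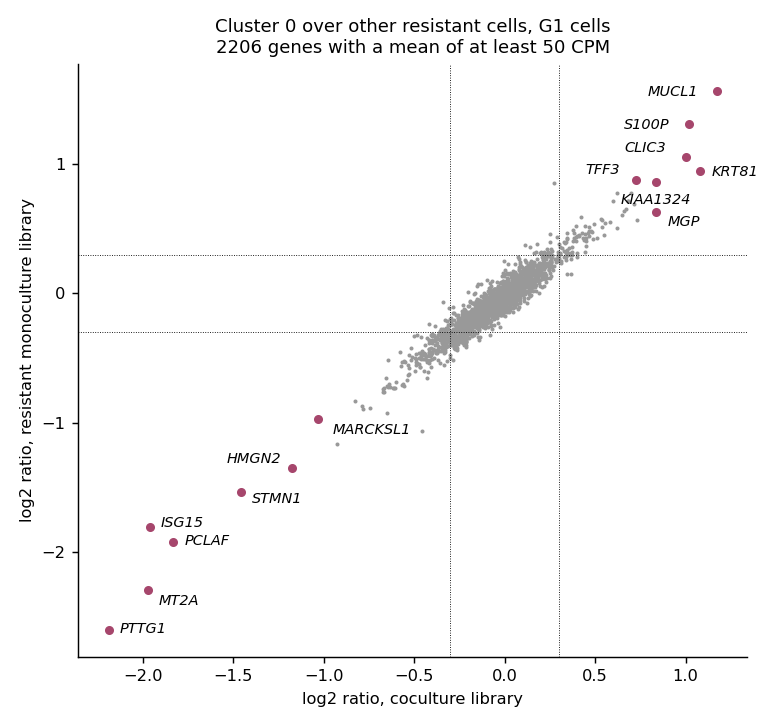
Log2 ratio of cluster 0 over the other resistant cells among G1 cells, coculture on the x axis and resistant monoculture on the y axis, 1 point for each of 2206 genes with a mean of 50 CPM or more; dotted lines mark the fold of 0.3 in either direction. MUCL1, S100P, CLIC3 and KRT81 lie in the upper right, and PTTG1, MT2A, PCLAF and ISG15 in the lower left.

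The MYC and ribosome biogenesis list stayed lower within G1, with 17 of 27 genes lower (medians −0.36 and −0.36), as did 3 of 4 metallothioneins (−0.87 and −0.79). The interferon count rested largely on cluster 9. It had 15 of 19 genes lower in G1 (−1.06 and −0.92), some of which reached the UMI minimum only with cluster 9 included, but 5 of 16 with cluster 9 left out (−0.11 and −0.11), and across phases 15 of 22 became 3 of 19. Of all genes without cluster 9, 1002 of 11619 were lower in G1 and 1768 of 12354 across phases. The MHC class I list went from 6 of 12 lower (−0.33 and −0.33) to 3 of 11 (−0.22 and −0.21). The MYC list was still lower in 17 of 27 without cluster 9. Cluster 9 itself differed little from cluster 0 in this list, as given below. In the luminal identity list 0 of 17 genes passed the fold in G1. With cluster 9 included, 3.18% of all genes were higher and 8.33% lower in G1.

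**Figure D4:**
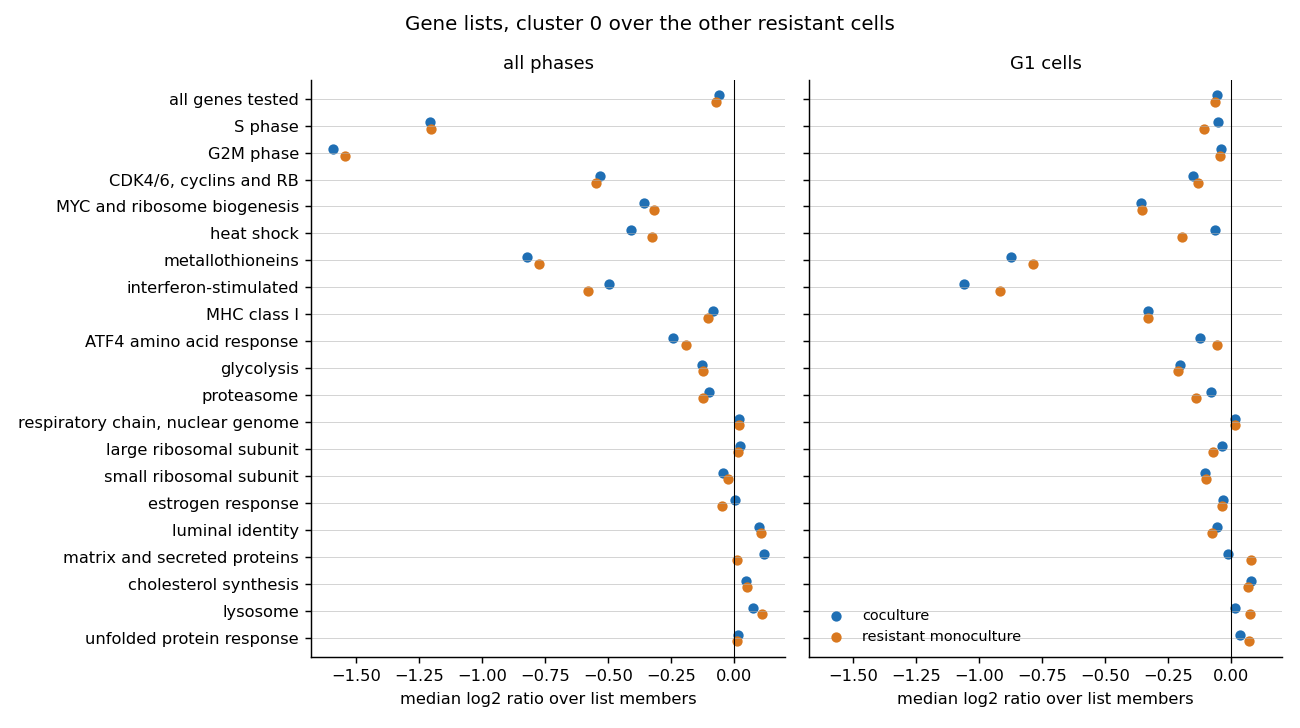
Median log2 ratio of 20 gene lists and of all genes tested (rows), cluster 0 over the other resistant cells, for all phases (left) and G1 cells (right), with 1 point per library. The S-phase medians are −1.21 and −1.20 across phases and −0.05 and −0.11 in G1, and the MYC list is at −0.36 and −0.36 in G1. The G1 call uses genes of the S and G2M kind, so those medians partly follow from it.

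Clusters 5, 6 and 9 had the profiles nearest to cluster 0, with root mean square log2 differences of 0.292 and 0.301, 0.331 and 0.345, and 0.354 and 0.365. Against cluster 5, 640 of 11659 genes were higher in cluster 0 (5.49%) and 1172 were lower (10.1%). MT2A and PTTG1 were the genes furthest apart. MT2A stood at 142 against 944 CPM in coculture and 117 against 782 in monoculture, and PTTG1 at 57.3 against 464 and 65.5 against 562. PCLAF (−2.25 and −2.14) and STMN1 (−1.75 and −1.67) were also lower in cluster 0. KRT81 (2.08 and 2.17), MUCL1 (1.41 and 1.80), CLIC3 (1.10 and 1.16) and S100P (0.96 and 0.97) were higher, while MGP was nearly level (0.24 and 0.25). The MYC list was lower in 17 of 27 (−0.44 and −0.41). Of the G2M genes 21 of 52 were lower and 3 higher (−0.31 and −0.29), beside G2M shares of 28.5% and 24.0% in cluster 5 and 5.88% and 5.10% in cluster 0.

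Against cluster 6, 1102 of 11585 genes were higher (9.51%) and 1444 were lower (12.5%). MGP set these clusters apart, with log2 ratios of 2.83 and 2.44, followed by MUCL1 (2.22 and 2.94), S100P (2.11 and 2.32) and KRT81 (2.58 and 1.91). PTTG1 (−1.71 and −2.03), STMN1 (−1.65 and −1.82), HMGN2 (−1.53 and −1.69) and PCLAF (−1.50 and −1.52) were lower in cluster 0. In the estrogen response list 11 genes were higher and 4 lower of 36. In the MHC class I list 5 of 11 were higher. Cell cycle genes were lower, with 25 of 40 S-phase genes (medians −0.41 and −0.50) and 27 of 52 G2M genes (−0.33 and −0.37). Beside this stood G1 shares of 58.0% and 52.6% in cluster 6. The MYC list was lower in 19 of 27 (−0.39 and −0.42), and the glycolysis list in 7 of 15, with 1 higher.

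Against cluster 9, 316 of 11424 genes were higher (2.77%) and 762 were lower (6.67%). Among the lowest genes against cluster 9, which held 67 and 108 resistant cells, were interferon-stimulated ones. IFIT1, an antiviral RNA-binding protein gene, stood at 1.45 CPM in cluster 0 against 245 in coculture and 0.937 against 345 in monoculture. ISG15 was at 21.0 against 870 and 24.5 against 986, and IFI27 at 6.49 against 519 and 11.6 against 446. The interferon list had 20 genes with enough UMIs here and 16 against clusters 5 and 6, and a gene that passed the minimum only through cluster 9 had to be lower in cluster 0, so the 20 of 20 that were lower and the 12 of 12 of the MHC class I list (11 against clusters 5 and 6) are given as counts only. Cell cycle genes were lower in cluster 0 too, with 38 of 52 G2M genes (medians −0.65 and −0.68) and 20 of 40 S-phase genes, beside G1 shares of 71.6% and 60.2% in cluster 9. The MYC list, low in cluster 0 against the other resistant cells, was lower in only 2 of 27 genes against cluster 9 (medians −0.11 and −0.15). S100P was higher in cluster 0 (1.31 and 1.61), CLIC3 by 0.47 and 0.38 on the log2 scale, and MGP was level (0.01 and 0.11).

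A pair of chromosome arms differed between cluster 0 and cluster 6. The arms were examined after these values had been seen. Genes were placed by GRCh37 coordinates and compared as the median log2 ratio per arm among G1 cells. Genes of the short arm of chromosome 1 had a median of −0.40 in coculture (268 genes) and −0.46 in monoculture (260 genes), and those of the short arm of chromosome 11 had 0.22 in both (74 and 75 genes). The other 38 arms lay between −0.15 and 0.00 in coculture and between −0.19 and 0.01 in monoculture. Against cluster 5 the same arms were unremarkable: 1p was −0.06 and −0.06, and 11p was −0.02 and −0.07, inside the range of the other arms. Across all phases, 347 of 695 genes on 1p were lower in cluster 0 against cluster 6 (49.9%) and 62 of 207 on 11p were higher (29.95%), where the genes of the other arms were 10.1% lower and 9.47% higher.

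**Figure D5:**
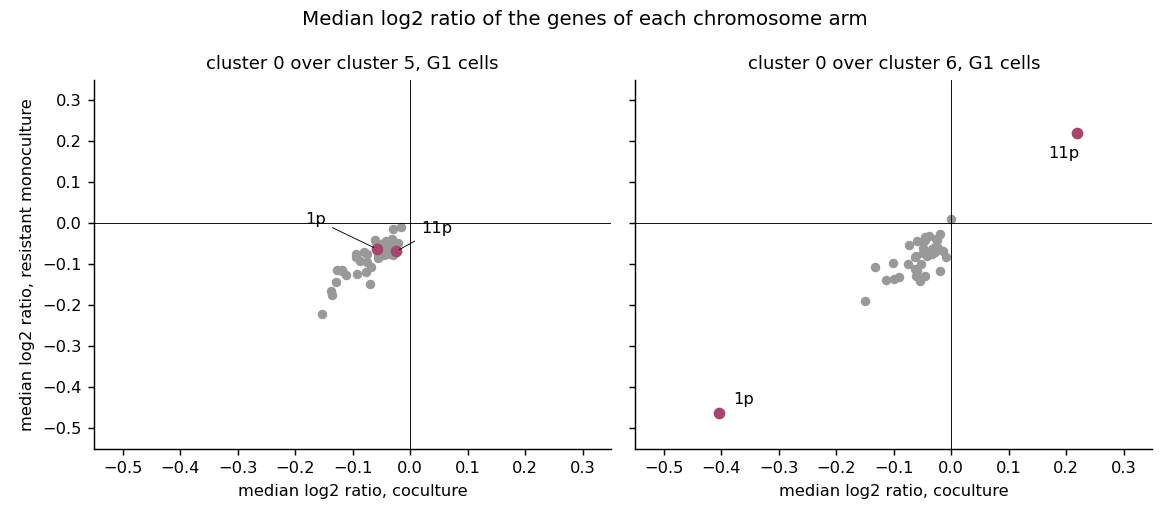
Median log2 ratio of the genes of each chromosome arm among G1 cells, coculture on the x axis and resistant monoculture on the y axis, for cluster 0 over cluster 5 (left) and over cluster 6 (right), 1 point per arm. Over cluster 6, 1p lies at −0.40 and −0.46 and 11p at 0.22, apart from the other 38 arms, and over cluster 5 neither arm stands apart.

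The arm difference was larger in the telomeric part of each arm than near the centromere, and for 1p it was also seen between single cells. Along 1p, the medians of 4 equal groups of genes from the telomere inward were −0.52, −0.56, −0.28 and 0.03 in coculture and −0.54, −0.64, −0.46 and −0.07 in monoculture. Along 11p they were 0.34, 0.40, 0.10 and −0.04 in coculture and 0.32, 0.29, 0.03 and −0.10 in monoculture. The share of a cell's UMIs from 1p genes had a median of 4.06% and 4.04% in cluster 0 and 5.23% and 5.23% in cluster 6, with the 90th percentile of cluster 0 at 4.54% and 4.52% and the 10th percentile of cluster 6 at 4.82% and 4.86%. Cluster 10 was like cluster 6 (5.32% and 5.27%), and clusters 5 (4.05% and 4.03%) and 1 (4.06% and 4.04%) were like cluster 0. Cluster 2 had a median of 4.23% and 4.19% with a 90th percentile of 5.39% and 5.42%. For 11p, cluster 0 stood at 1.63% and 1.61% and cluster 6 at 1.34% and 1.32%, and here the cells overlapped: the 90th percentile of cluster 6 was 1.65% and 1.66%, above the median of cluster 0. Shares of the long arm, 1q, also differed in median, at 6.42% and 6.07% in cluster 0 against 5.97% and 5.63% in cluster 6, with overlapping cells. The clusters were made from these cells' expression, so the gap between single cells partly follows from the clustering. RNA levels alone do not give copy number, and it was not measured here.

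Cluster 0 cells of the coculture and of the resistant monoculture were then compared. Each condition was 1 library, so condition and library cannot be told apart. The other resistant cells of the same libraries are given beside the values of genes and lists, but not beside the counts of all genes. Of 12260 genes, 1243 were higher in coculture (10.1%) and 341 were lower (2.78%), and with TMM scaling 887 were higher and 655 lower, so the balance depends on the scaling. The median of all genes was 0.03. The genes with the largest differences were also different in the other resistant cells. CLU stood at 1558 against 882 CPM in cluster 0, a log2 ratio of 0.82 beside 0.72 in the other resistant cells. MUCL1 stood at 804 against 458, a ratio of 0.81 beside 0.86. NMT1, a myristoyltransferase gene, was at 163 against 92.2, 0.82 beside 0.82. METAP2, an aminopeptidase gene, was at 221 against 134, 0.72 beside 0.63. SNHG25 (0.77 beside 0.81), YWHAG (0.73 beside 0.72), FBXW11 (0.73 beside 0.68) and AP2B1 (0.72 beside 0.67) completed the 8 highest.

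Among the 8 genes lowest in coculture in cluster 0, AGR2, NOP53, PRDX4 and MT-ND1 were also low in the other resistant cells. The values of the others, MARCKSL1, KLF2, SLC3A2 and BCAS2, are not given here. AGR2, a secretory-pathway disulfide isomerase gene, stood at 110 against 167 CPM, a ratio of −0.60 beside −0.51. NOP53, a ribosome biogenesis gene, was at 74.1 against 113, −0.61 beside −0.63. PRDX4, a peroxiredoxin gene of the endoplasmic reticulum, was at 228 against 323, −0.50 beside −0.48. MT-ND1, a mitochondrially encoded respiratory subunit, was at 5651 against 7888, −0.48 beside −0.46. Of the 13 respiratory genes of the mitochondrial genome 3 were higher and 3 lower in cluster 0 (median −0.05). MGP was level, at −0.06 in cluster 0 beside −0.14. Among the lists, 6 of 17 genes of the BMP and ID list were higher in coculture in cluster 0 (median 0.25), where 10.1% of all genes were. In the other resistant cells 5 of 17 were higher (median 0.23), and the share of all genes there is not given. ID1, a BMP target, was at 398 against 313 CPM in cluster 0, 0.35 beside 0.35. MUCL1 was also found in sensitive cells of the coculture, with a mean of 8.16 thinned UMIs against 4.66 in cluster 0, and the part of free RNA in its coculture level was not tested.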

How the data were processed

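Libraries of CAMA-1 spheroids, 1 per condition, were read; the cells of cluster 0 came almost entirely from the coculture and the resistant monoculture. Reads were processed by the authors with Cell Ranger 3.0.2 on GRCh37 and deposited as UMI counts per gene and barcode. The authors' annotation, deposited as a table of cells, gives the cluster, which they made with Seurat from 2000 variable genes, the phase, the population, the S and G2M score and the mitochondrial percent of UMIs per cell. Their stated limits were 3000 to 7000 genes, 2000 to 60000 UMIs, under 30% mitochondrial UMIs and a doublet score of 0.25. The study describes 2 or more UMIs of a transgene as the limit, whereas the deposited annotation also holds resistant cells with fewer. Another 8 columns of the annotation were not used. No doublet was removed here: scores were recomputed with Scrublet in scanpy 1.11.5 and given beside the results. The sum of the UMI counts per library and cluster was scaled to CPM, leaving out rows with no gene symbol (0.613% and 0.576% of UMIs), with exact Poisson intervals. The coculture held 20227 barcodes with 519475237 UMIs and the resistant monoculture 11502 with 359599734. Log2 ratios used a pseudocount of 1 CPM, which understates the change of low genes, and genes with 50 or more UMIs. TMM factors came from edgeR 4.0.16, for scaling only; no model was fitted, since 1 library per condition leaves no replicate spread. In simulated counts for cluster 0 over the other resistant cells in coculture, 99.5% of 200 changed genes among 12373 had the right direction. The simulation was of 1 library, so it gives no measure of spread between libraries or of how the clusters were made. Named genes were MGP and the transgenes, the 12 highest and 12 lowest across phases, 8 and 8 in G1 and between conditions, and 4 and 4 against each of the 3 nearest clusters, with a mean of 50 CPM or more, ranked by the smaller ratio of both libraries, and 2 per list. Of 37 gene lists, 10 genes could not be matched. The members, the lists and the rules were chosen with earlier results of these data known. Strand use in counting is not given in the sources used here, so antisense and overlapping genes are uncertain. Genes were placed on arms with GENCODE 44 lifted to GRCh37. Alternatives were the pseudocount, TMM scaling, UMI minimum, fold, G1 cells, mCherry UMIs, mitochondrial percent, doublet score and per-cell means.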

Additional observations from a re-analysis of the deposited data

How the results depend on the processing

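Depth limited genes under about 50 UMIs, and with 1 library per condition no replicate could be left out. No paired test was run, since the clusters were made from these same cells and each difference is a description. Cluster 0 and the other cells were compared within each library. The alternatives were planned, except leaving out clusters 6, 6 and 10, or 9 and all arm values, which were chosen after seeing the data. The values below moved by over 1.5 times for a count, or past the interval for a share or ratio, and directions of MGP were kept except between conditions at under 20% mitochondrial UMIs (0.0079). Counts are given as cluster 0 over the other resistant cells, higher and lower, then the same in G1, then coculture over monoculture within cluster 0. With a pseudocount of 10 CPM they were 157 and 831, 118 and 292, and 389 and 98. With 0.1 CPM the first was 822 higher, and between conditions 1881 and 645. With TMM scaling the first was 828 higher, in G1 692 and 562, and between conditions 655 lower. With 500 or more UMIs G1 gave 624 lower. At a log2 ratio of 0.5 they were 134 and 751, 88 and 249, and 239 and 21. With 2 or more mCherry UMIs 543 genes were lower between conditions. A larger pseudocount and a larger fold each lower these counts by construction; for the other moves the cause was not tested. The MGP ratio over the other resistant cells (coculture, monoculture) was 0.61 and 0.53 with TMM, 0.84 and 0.63 in G1, 0.59 and 0.57 with 2 or more mCherry UMIs, 0.58 and 0.48 with under 20% mitochondrial UMIs, 0.50 and 0.44 as a mean of per-cell CPM, 0.38 and 0.31 without cluster 6, and 0.32 and 0.26 without clusters 6 and 10. With doublet scores up to 0.25 it was 0.48 in monoculture. MGP between conditions was −0.11 with TMM, −0.075 in G1 and −0.071 as a mean per cell. The share of resistant cells in cluster 0 was 37.1% and 35.1% with 2 or more mCherry UMIs, which reversed the order of the libraries. It was 37.3% and 38.0% with under 20% mitochondrial UMIs. The G1 share was 77.0% in monoculture with 2 or more mCherry UMIs, and 80.2% and 76.0% with under 20% mitochondrial UMIs. In G1 cells 9 of 35 list medians changed sign in coculture and 5 of 35 in monoculture. Of these, 4 had been at 0.1 or more in size across phases: luminal identity in monoculture (−0.079), matrix and secreted proteins in coculture (−0.016), and nuclear RNA in both (−0.072 and −0.044). Among all other values of single genes and lists, 350 moved and 406 did not. The 1p and 11p medians over cluster 6 kept their sign with a minimum of 50 CPM, with 2 or more mCherry UMIs and with TMM scaling.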

Other observations

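Other lists of stress and metabolism held single genes that differed in cluster 0. Across all genes 4.19% were higher and 14.2% were lower. In the hypoxia list 2 of 20 genes were higher across phases and 1 was lower, led by ANKRD37, a hypoxia-induced ankyrin repeat gene, at 49.5 CPM against 28.1 in coculture and 38.5 against 21.7 in monoculture. In the p53 list 3 of 14 were higher and 1 was lower, led by GDF15, a stress-induced secreted factor, at 11.2 against 4.76 CPM and 12.997 against 6.28. GDF15 was far higher in the small cluster 13, at 52.4 CPM in coculture and 87.3 in monoculture. CDKN1A, the p53-induced CDK inhibitor, chosen after its values were seen, was nearly level at 15.9 against 14.8 and 9.87 against 8.63. In the cholesterol list 1 of 19 was lower, ACAT2, an acetyl-CoA acetyltransferase gene, at 26.1 against 61.7 CPM and 33.6 against 83.0. The glycolysis list had 4 of 15 genes lower (medians −0.13 and −0.12, where those of all genes were −0.06 and −0.07). No gene of the oxidative stress list passed the fold across phases (0 of 12).

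Between coculture and monoculture in cluster 0, 6 of 20 immediate early genes were higher in coculture and 1 was lower, beside 4 and 2 in the other resistant cells. Of the p53 targets 4 of 14 were higher and 0 lower, beside 3 and 1. Of the EGFR and MAPK list 4 of 13 were higher and 0 lower, beside 5 and 0. Of the TGFB list 5 of 16 were higher and 1 lower, beside 5 and 0. Other lists held more lower genes. Luminal identity had 3 of 17 higher and 4 lower, beside 3 and 5. The ATF4 list had 1 of 16 higher and 3 lower, beside 2 and 3. The interferon list had 2 of 18 higher and 3 lower, beside 1 and 5. Of all genes in cluster 0, 10.1% were higher in coculture and 2.78% were lower. The same share in the other resistant cells is not given, so their list counts have no background here. These are values of 1 library per condition and were not tested.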
